A study of Mus musculus with 12 samples.

Results

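The receptors of the tumour necrosis factor (TNF) family considered here were Tnfrsf9, Tnfrsf1a, Tnfrsf1b, Tnfrsf11b, Tnfrsf12a, Fas and Ltbr. Their probe sets were taken from an array table of 12488 probe sets by gene symbol or older synonym. The 7 genes had been chosen from earlier results on these same arrays, with the signals of all 4 cell lines known, so their levels and differences are given as a description, with no p-value. The number of them that the fit over all probe sets called is printed once, beside the share of all probe sets called, and supports nothing. A probe set was found for 6 of the 7 genes, 9 probe sets in all. Tnfrsf12a matched no probe set and was not analysed here. Of the 9 probe sets, 6 passed the filter on low signal, which asked for 3 or more of the 12 arrays to exceed 181.4, the median signal of the whole table.

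RNA came from mouse embryonic fibroblasts of genotype KSR1-/- on a DBA background, so the endogenous scaffold was missing in every line. KSR1 holds Raf, MEK and ERK together in the cascade downstream of Ras. The GFP line carried green fluorescent protein alone, and the H-RasV12 line carried the oncogenic Ras mutant with GFP. The KSR1 line carried re-expressed KSR1 with GFP, and the double line carried KSR1, H-RasV12 and GFP. Each line was hybridised to 3 arrays. The labels name no vector, clone or passage, and nothing in them states that arrays of a line came from separate cultures. Errors and p-values therefore cover the spread between these arrays, which may be technical. Levels are MAS5 signals on a linear scale (mean ± SD, n = 3), and differences are on the log2(signal + 23) scale ± SE. Bulk RNA does not separate fewer cells with a transcript from less transcript per cell.

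Receptors of this family bind trimeric TNF-like ligands through cysteine-rich extracellular repeats. Those with a cytoplasmic death domain, Fas and Tnfrsf1a (TNF receptor 1) among them, can recruit adapters that activate caspase-8. Tnfrsf1a and many members without a death domain also engage TRAF adapters and feed into the NF-kB and JNK pathways, and a few members are decoys that do not signal. Tnfrsf9, also called 4-1BB or CD137, is best known as a costimulatory receptor of activated T cells and has 1 ligand in the family, Tnfsf9. Fibroblasts are a common experimental system for signalling by TNF receptor 1.

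The labels were first set against the arrays. The Ksr1 probe set that followed the transgene (92765_s_at) read 144, 21.1 and 37.5 with GFP, 20.2, 32.2 and 14.2 with H-RasV12, 933, 1605 and 207 with KSR1, and 301, 262 and 141 in the double line. Every array with the KSR1 transgene was therefore above every H-RasV12 array, while the double line's array at 141 lay below the GFP array at 144. The other Ksr1 probe set (92764_at) stayed between 180 and 366 on all arrays. Of 11 fibroblast markers 9 passed the filter, but their summed signal ran from 51586 to 67574 with GFP, 52515 to 73356 with H-RasV12, 38976 to 40153 with KSR1 and 20132 to 31919 in the double line. Both lines with KSR1 thus lay wholly below both lines without it in this sum. By brightest probe sets, Col1a1 averaged 18526 with GFP and 8461 with KSR1, and Col1a2 averaged 13693 and 5617. Col3a1, Col6a1, Fn1 and Pdgfrb were also lower with KSR1 than with GFP. Dcn (2807 and 5751), Pdgfra (1433 and 1963) and S100a4 (11434 and 12787) were higher. The low KSR1 sum was thus not shared by all markers. In the double line all 9 averaged less than with H-RasV12. Vim and Thy1 stayed below the filter. Of the 6 T cell markers on the array, only Cd4 passed it, and the sum of the 6 ran from 239 to 479 with GFP, 184 to 317 with H-RasV12, 265 to 589 with KSR1 and 209 to 275 in the double line. Ptprc, the pan-leukocyte marker, never exceeded 27.4. Cd14 was the 1 macrophage or leukocyte marker of 6 past the filter, with a mean of 1126 with GFP and 2250 with KSR1. The summed macrophage and leukocyte markers ran from 1097 to 1981 with GFP, 1266 to 1474 with H-RasV12, 1848 to 3677 with KSR1 and 1495 to 1747 in the double line, and the part of other cell types in the results was not tested. The replicate 1 arrays of the GFP, KSR1 and double lines read between 146 and 395 for 18S ribosomal RNA (3' control), against 516 to 3312 on the other 9 arrays. For beta-actin (3' control), replicate 1 read 7981 with GFP and 8629 in the double line. All other arrays, KSR1 replicate 1 among them, read between 16680 and 26873.

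RefSeq places 2 start sites for Tnfrsf9 on chromosome 4 of GRCm38.p6, and the 300 bases around each (250 before and 50 after the start) are shown because this receptor differed most between lines. Fas is shown beside them as the receptor that was lower with H-RasV12. Capitals mark matches, on either strand, to 7 motifs searched. The AP-1 motif was spelled TGANTCA, which leaves the middle base free. The E-box was spelled CACGTG, the site of basic helix-loop-helix factors. The others were CRE, the TATA box (TATAAA), and NF-kB, CArG and the p53 half-site, the last 3 by name alone.

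Tnfrsf9, upstream start, chr4:150919905-150920204, plus strand: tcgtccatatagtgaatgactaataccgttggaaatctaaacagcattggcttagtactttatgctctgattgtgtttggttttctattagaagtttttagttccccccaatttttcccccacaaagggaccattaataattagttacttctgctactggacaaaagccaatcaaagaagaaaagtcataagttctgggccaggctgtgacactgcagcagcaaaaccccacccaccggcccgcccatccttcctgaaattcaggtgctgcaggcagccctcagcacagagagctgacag
Tnfrsf9, downstream start, chr4:150927749-150928048, plus strand: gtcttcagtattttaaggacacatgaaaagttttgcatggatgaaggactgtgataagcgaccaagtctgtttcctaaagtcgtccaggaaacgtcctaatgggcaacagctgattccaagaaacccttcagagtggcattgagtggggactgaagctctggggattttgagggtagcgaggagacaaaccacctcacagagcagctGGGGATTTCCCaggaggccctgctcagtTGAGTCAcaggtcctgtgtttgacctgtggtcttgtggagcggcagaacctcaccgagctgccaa
Fas, chr19:34290409-34290708, plus strand: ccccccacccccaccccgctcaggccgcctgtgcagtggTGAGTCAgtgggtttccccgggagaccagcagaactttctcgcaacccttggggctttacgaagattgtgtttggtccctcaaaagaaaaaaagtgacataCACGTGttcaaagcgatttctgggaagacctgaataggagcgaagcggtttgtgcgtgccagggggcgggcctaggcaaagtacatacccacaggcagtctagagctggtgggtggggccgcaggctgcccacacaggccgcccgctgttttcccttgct

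The downstream Tnfrsf9 start carried a pair of overlapping NF-kB matches beginning 43 and 42 bases before the start, and an AP-1 match beginning 15 bases before it. The upstream start carried none of the 7 motifs. Fas carried an AP-1 match 211 bases and an E-box 110 bases before its start. Across 32851 mouse promoter windows of this length, 7.81% held the AP-1 letters, 4.51% the NF-kB motif and 7.15% the E-box. CRE, spelled TGACGTCA (1.79%), CArG (1.63%), TATA (13.6%) and the p53 half-site (8.36%) matched no window of the listed genes. Windows were found for 6 of the 7 genes. Ltbr held 1 E-box, and Tnfrsf1a, Tnfrsf1b and Tnfrsf12a held no match. A match of letters is a description and says nothing of binding.

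Tnfrsf9 was read by 2 probe sets, which behaved differently. Probe set 103509_at, annotated from an expressed sequence tag, read 67.7, 3.50 and 21.6 with GFP and 3.38, 9.84 and 3.65 with H-RasV12. It read 1137, 781 and 413 on the KSR1 arrays, and 891, 1070 and 662 in the double line. All 6 arrays with KSR1 lay above all 6 without it, and the lowest with KSR1, at 413, was well above the highest without, at 67.7. The mean was 31.0 ± 33.1 with GFP, 5.62 ± 3.65 with H-RasV12, 777 ± 362 with KSR1 and 874 ± 205 in the double line. On the log2 scale the KSR1 line exceeded GFP by 3.96 ± 0.43, and the double line exceeded H-RasV12 by 4.95 ± 0.43. A pseudocount of 1 raised these differences to 5.23 and 7.15 and a pseudocount of 100 lowered them to 2.68 and 3.18, since the arrays without KSR1 were dim. The probe set passed the filter on the 6 arrays with KSR1 alone, so a difference was built into its passing.

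The order of the lines for this probe set was double line, KSR1, GFP and H-RasV12, and only the step between KSR1 and GFP separated neighbours. The double line and the KSR1 line overlapped (+0.25 ± 0.43 for the double line minus KSR1), as did H-RasV12 and GFP (-0.74 ± 0.43). The response to H-RasV12 differed by 0.99 ± 0.61 on the log2 scale between the backgrounds with and without KSR1. This value rests on GFP and H-RasV12 signals far below 181.4 and ran from 0.50 to 1.92 over the alternatives. Among the KSR1 arrays, Tnfrsf9 was highest on replicate 1, at 1137, where Ksr1 read 933. The array with the highest Ksr1 signal, replicate 2 at 1605, read 781 for Tnfrsf9. Replicate 3 was lowest for both genes in the KSR1 line (Ksr1 207, Tnfrsf9 413) and in the double line (141 and 662). Whether the 2 signals were related across arrays was not tested. Ksr1 averaged 235 ± 83.6 in the double line against 915 ± 699 in the KSR1 line, while Tnfrsf9 averaged slightly more there.

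The second Tnfrsf9 probe set (97683_at), annotated from another sequence entry, did not show this pattern. It read 43.4, 75.9 and 63.3 with GFP, 56.8, 83.4 and 88.2 with H-RasV12, 39.4, 144 and 65.3 with KSR1, and 59.6, 100 and 56.9 in the double line. All 4 lines overlapped and no array reached the filter's level of 181.4. The KSR1 line exceeded GFP by 0.23 ± 0.36 and the double line differed from H-RasV12 by -0.07 ± 0.36. The KSR1-linked signal of Tnfrsf9 thus rested on 1 of its 2 probe sets. That 103509_at reads Tnfrsf9 is the platform annotation's statement. Its probe sequences were not analysed here, so neither its match to the gene nor the cause of the disagreement was tested, and every value called Tnfrsf9 in the text and plots that is not given to 97683_at is the value of 103509_at.

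**Figure D1:**
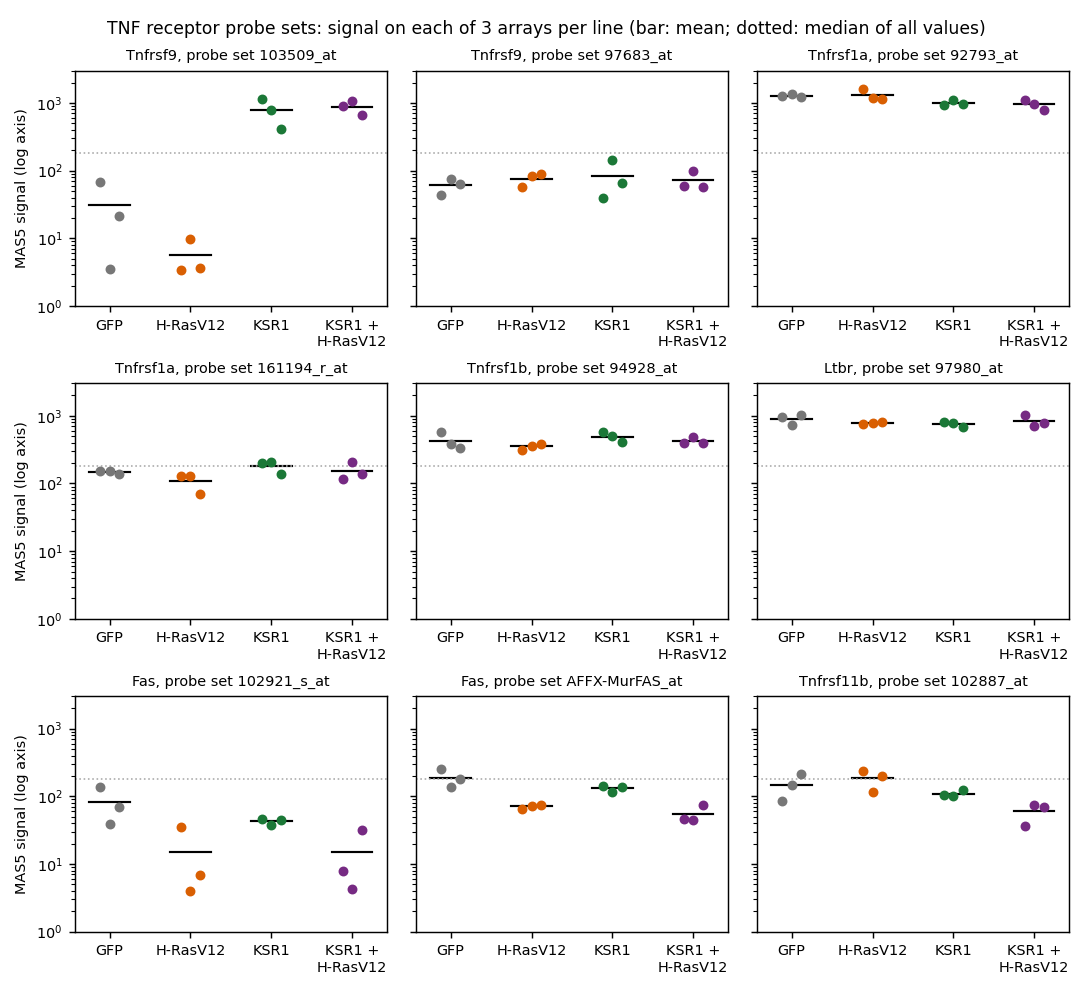
MAS5 signal (log axis) of the 9 probe sets on each array of the 4 lines, with dots for arrays, bars for the means of 3 arrays and a dotted line at 181.4, the median of all values. Tnfrsf9 103509_at lies at 413 or above on the 6 arrays with KSR1 and at 67.7 or below on the other 6, while Tnfrsf9 97683_at stays at 144 or below throughout.

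The receptors for TNF itself and for lymphotoxin differed little. Tnfrsf1a, the death-domain receptor for TNF, read 1258, 1356 and 1228 with GFP, 1586, 1167 and 1129 with H-RasV12, 936, 1092 and 956 with KSR1, and 1112, 951 and 788 in the double line (probe set 92793_at). The KSR1 arrays lay below all GFP arrays, and the double-line arrays below all H-RasV12 arrays. The differences were small, at -0.36 ± 0.18 for KSR1 minus GFP and -0.43 ± 0.18 for the double line minus H-RasV12. A dimmer probe set for the same gene (161194_r_at) pointed the other way, with +0.25 ± 0.30 and +0.41 ± 0.30 for the same comparisons. Its group means lay between 110 and 183, and its lines overlapped in both of these comparisons. For H-RasV12 minus GFP, where 92793_at overlapped, every H-RasV12 array of 161194_r_at lay below every GFP array (-0.40 ± 0.30). This dimmer probe set passed the filter on exactly 3 arrays, all with KSR1 (202 and 210 in the KSR1 line, 208 in the double line). A higher level with KSR1 was thus built into its passing.

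Tnfrsf1b, the TNF receptor without a death domain, read 578, 383 and 331 with GFP, 314, 358 and 386 with H-RasV12, 578, 498 and 404 with KSR1, and 396, 486 and 392 in the double line. The double-line arrays lay just above all H-RasV12 arrays (+0.25 ± 0.22), and the other 3 comparisons overlapped. Ltbr, the lymphotoxin beta receptor, read 973, 732 and 1013 with GFP, 750, 785 and 797 with H-RasV12, 823, 779 and 673 with KSR1, and 1018, 717 and 771 in the double line. Its lines overlapped in all 4 comparisons, and its largest difference was -0.24 ± 0.19 for KSR1 minus GFP. In the mouse gene table of GRCm38.p6, Ltbr and Tnfrsf1a are separated by 1 protein-coding gene, Scnn1a.

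Fas, the death receptor bound by Fas ligand, was lower in the lines with H-RasV12. Its gene probe set (102921_s_at) read 136, 38.5 and 68.9 with GFP and 35.0, 3.93 and 6.84 with H-RasV12, and 45.7, 38.0 and 45.1 with KSR1 against 7.85, 4.32 and 32.3 in the double line. The array maker's Fas control probe set (AFFX-MurFAS_at) read 250, 136 and 182 with GFP, 65.6, 73.2 and 75.4 with H-RasV12, 142, 115 and 139 with KSR1, and 46.7, 45.2 and 74.9 in the double line. In both probe sets every H-RasV12 array lay below every GFP array, and every double-line array below every KSR1 array. For H-RasV12 minus GFP the differences were -1.42 ± 0.38 and -1.14 ± 0.28, and for the double line minus KSR1 they were -0.87 ± 0.38 and -0.995 ± 0.28. The KSR1 line overlapped with GFP in both (-0.55 ± 0.38 and -0.42 ± 0.28). Neither probe set passed the filter, and a control probe set enters no test here, so these values come from a fit without a filter. The signals of 102921_s_at are dim, and its H-RasV12 difference ran from -2.70 with a pseudocount of 1 to -0.63 with a pseudocount of 100.

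Tnfrsf11b (osteoprotegerin) is a secreted decoy receptor that binds RANK ligand. It read 84.2, 146 and 211 with GFP, 239, 117 and 202 with H-RasV12, 104, 101 and 123 with KSR1, and 36.0, 73.4 and 70.3 in the double line. The double line held the lowest signals, below every array of the other 3 lines. It was 1.32 ± 0.37 lower than H-RasV12 and 0.71 ± 0.37 lower than KSR1 on the log2 scale. The GFP and H-RasV12 arrays overlapped. The probe set passed the filter on exactly 3 arrays, 1 of GFP and 2 of H-RasV12, so a difference from the lines with KSR1 was built into its passing.

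**Figure D2:**
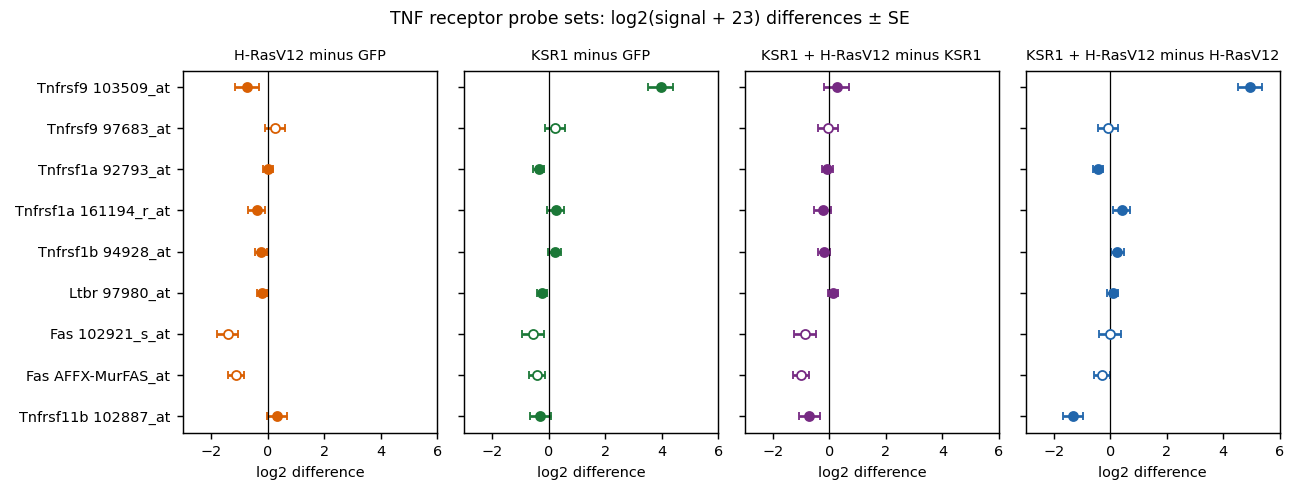
Differences between lines on the log2(signal + 23) scale ± SE for each probe set, 1 panel per comparison, with open circles for probe sets below the filter. Tnfrsf9 103509_at stands at +3.96 for KSR1 minus GFP and +4.95 for the double line minus H-RasV12, and the 2 Fas probe sets lie at -1.42 and -1.14 for H-RasV12 minus GFP.

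Of the 6 receptor probe sets past the filter, limma called 0 for H-RasV12 minus GFP, where it called 0% of all 6897 tested probe sets as higher and 0.0725% as lower (411 had an unadjusted p under 0.05). For KSR1 minus GFP it called 1 higher (Tnfrsf9) and 0 lower, against 4.97% and 6.81% of all. For the double line minus KSR1 it called 0, against 8.16% higher and 6.92% lower. For the double line minus H-RasV12 it called 1 higher (Tnfrsf9) and 1 lower (Tnfrsf11b), against 7.1% and 7.71%. For the difference between the H-RasV12 responses in the presence and absence of KSR1 (the interaction), it called 0, against 4.16% higher and 3.54% lower. These comparisons were in view when the genes were chosen. Tnfrsf9 passed the filter only through arrays with KSR1 and Tnfrsf11b only through arrays without it, so both entered the fit through the lines where they were high. The Tnfrsf11b call ended in 5 of 19 alternatives. Nothing is read from the counts.

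The genes around the receptors were taken from 5 lists drawn up by function: 21 other TNF receptors, 18 ligands, 24 adapters and death-signalling genes, 12 NF-kB subunits, inhibitors and kinases, and 19 NF-kB target genes. Past the filter were 2, 3, 17, 9 and 13 of them, in that order. The other receptors were sparse. Only Tnfrsf11a (RANK) and Tnfrsf18 (GITR) passed the filter of the 9 with a probe set, and neither was called in any comparison. The signal of Cd40 stayed at or below 77.2 on every array. Of the ligands, Tnf stayed at or below 70.8 and Fasl, the ligand of Fas, at or below 14.3.

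Tnfsf9, the ligand of Tnfrsf9, rose with KSR1. Its signals were 85.0, 168 and 141 with GFP, 125, 221 and 114 with H-RasV12, 376, 457 and 427 with KSR1, and 204, 209 and 156 in the double line. All KSR1 arrays lay above all other arrays. The rise over GFP was +1.56 ± 0.28 (limma adjusted p = 0.00203, 3 of 3 arrays above all GFP arrays) and was called in all 20 alternatives. Tnfsf9 passed the filter on 6 arrays, among them all those of the KSR1 line and none of GFP. A GFP line below KSR1 was thus in part built into its passing. The ligand fell from KSR1 to the double line by 1.07 ± 0.28 on the log2 scale (limma adjusted p = 0.02). That call ended under median centring (limma adjusted p = 0.0588) and without KSR1 replicate 2, KSR1 replicate 3 or double-line replicate 3 (0.0797, 0.0562 and 0.0737). The double line did not pass against H-RasV12 (+0.31 ± 0.28, limma adjusted p = 0.566), where the receptor's probe set 103509_at was 4.95 higher. The comparisons of KSR1 with GFP and of the double line with KSR1 share the KSR1 arrays, so a rise in the first and a fall in the second are 1 high level read from both sides. The other measured ligands, Lta and Eda, passed no test.

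Among the 17 measured adapters and death-signalling genes, 1 fell and 0 rose for KSR1 minus GFP, 1 rose and 2 fell for the double line minus KSR1, and 3 rose and 3 fell for the double line minus H-RasV12. Over all probe sets, 4.97% were called higher and 6.81% lower in the first comparison, 8.16% and 6.92% in the second, and 7.1% and 7.71% in the third. The median difference of the 17 was 0.04, 0.04 and -0.02 in these comparisons, against 0.04, -0.07 and -0.05 over all 6897 probe sets. Traf5, an adapter of several receptors of the family, read 312, 332 and 294 with GFP, 365, 361 and 368 with H-RasV12, 96.9, 48.9 and 90.9 with KSR1, and 236, 83.9 and 47.1 in the double line. It fell by 1.76 ± 0.38 on the log2 scale for KSR1 minus GFP (limma adjusted p = 0.00731) and was lower in the double line than with H-RasV12 (-1.64 ± 0.38, limma adjusted p = 0.00865). All 6 arrays with KSR1 were below all 6 without it, and both calls held in all 20 alternatives. Traf5 passed the filter on 7 arrays, all 6 without KSR1 and the double-line array at 236. A low level with KSR1 was thus in part built into its passing.

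Traf6, an adapter that also serves interleukin-1 and Toll-like receptors, was high in the double line alone. It averaged 211 ± 5.41 with GFP, 219 ± 25.5 with H-RasV12, 179 ± 23.2 with KSR1 and 604 ± 190 in the double line. It rose by 1.59 ± 0.24 over KSR1 (limma adjusted p = 0.000346) and by 1.33 ± 0.24 over H-RasV12 (limma adjusted p = 0.00136), with all 3 double-line arrays above the other 9. Birc3, an inhibitor of apoptosis bound by TRAF2, and Map3k5, the stress kinase ASK1, went down in the same line. Birc3 averaged 159 ± 54.8, 204 ± 69.7, 294 ± 110 and 54.7 ± 43.6 in the GFP, H-RasV12, KSR1 and double lines, and fell by 2.11 ± 0.40 from KSR1 (limma adjusted p = 0.00214). Its difference from H-RasV12 of -1.64 ± 0.40 (limma adjusted p = 0.0117) was not called without H-RasV12 replicate 3 (0.0631), double-line replicate 2 (0.0506) or double-line replicate 3 (0.0523). Map3k5 averaged 150 ± 55.2, 187 ± 53.2, 222 ± 9.15 and 45.2 ± 14.9, and fell by 1.87 ± 0.32 from KSR1 (limma adjusted p = 0.00104) with a difference of -1.61 ± 0.32 from H-RasV12 (limma adjusted p = 0.00296). Birc3 and Map3k5 each passed the filter on 6 arrays, none of them of the double line, so a low double line was in part built into their passing. The other 2 that rose over H-RasV12 lay outside the rule for named genes and were chosen after their values were seen: Bid, a death-receptor effector of the Bcl-2 family (+0.98 ± 0.25, limma adjusted p = 0.0166), and Tnip1, a partner of the NF-kB inhibitor A20 (+0.66 ± 0.17, limma adjusted p = 0.0155). The Bid call ended without H-RasV12 replicate 2 or 3 or double-line replicate 1 (0.0655, 0.0524 and 0.0508) and with replicates 2 and 3 alone (0.0555), and the Tnip1 call without H-RasV12 replicate 2 or 3 (0.0702 and 0.0507).

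**Figure D3:**
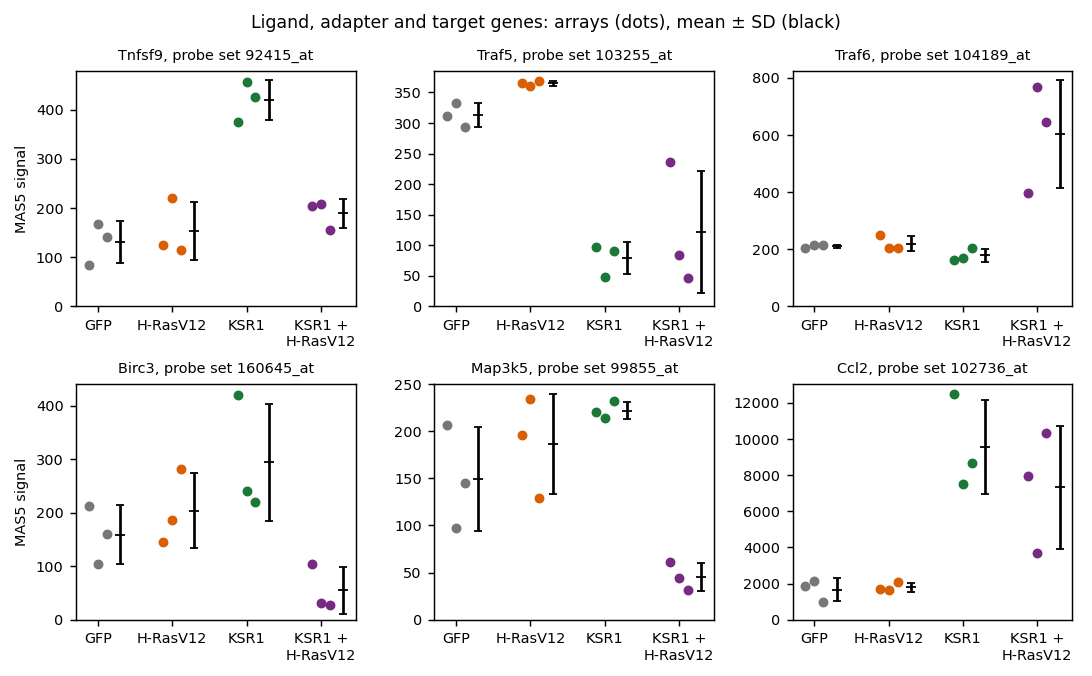
MAS5 signal of 6 ligand, adapter and target genes on each array of the 4 lines, with mean ± SD of 3 arrays in black beside the dots. Tnfsf9 is highest in the KSR1 line at 376 to 457, Traf5 is at or below 236 on every array with KSR1 and at or above 294 on every array without it, and Traf6 is at or above 396 on the double-line arrays and at or below 249 on the other 9.

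Of 9 measured NF-kB subunits, inhibitors and kinases, 3 rose and 0 fell for KSR1 minus GFP, where 4.97% and 6.81% of all probe sets did. Their median was 0.43 against 0.04 over all probe sets, and it was 0.72 without GFP replicate 1 and 0.22 without GFP replicate 2. They were the inhibitor genes Nfkbia (IkB-alpha, +0.67 ± 0.19, limma adjusted p = 0.0344) and Nfkbib (IkB-beta, +0.80 ± 0.23, 0.0336) and the atypical family member Bcl3 (+1.14 ± 0.33, 0.0357). The GFP array at 848 for Bcl3 lay above KSR1 arrays at 752 and 838. A second Nfkbia probe set rose as well (+0.80 ± 0.21, limma adjusted p = 0.024). These calls ended in several alternatives. Without GFP replicate 2 the limma adjusted p was 0.097 for Nfkbia, 0.122 for Nfkbib and 0.152 for Bcl3, and without GFP replicate 3 it was 0.125, 0.13 and 0.167. Nfkbia also lost its call without replicate 1 of GFP (0.0507) and without replicate 1 or 3 of KSR1 (0.148 and 0.0529), Nfkbib without KSR1 replicate 1 or 3 (0.106 and 0.105), and Bcl3 without KSR1 replicate 2 or 3 (0.175 and 0.0579). Median centring ended the calls of Nfkbia (0.0856) and Nfkbib (0.0639), dropping the filter those of Bcl3 (0.0675) and Nfkbib (0.0586), and the use of replicates 2 and 3 alone that of Nfkbia (0.113). Relb, a subunit of the non-canonical dimer, was the 1 called gene for the double line minus KSR1, where it fell by 1.14 ± 0.32 on the log2 scale (limma adjusted p = 0.0278). That call ended without KSR1 replicate 1, KSR1 replicate 2 or double-line replicate 2 (0.0988, 0.108 and 0.114) and with median centring (0.0583) or no filter (0.0577). In this comparison 8.16% of all probe sets were called higher and 6.92% lower. For the double line minus H-RasV12, 0 of the 9 passed limma and 3 had an unadjusted p under 0.05. The 2 probe sets of the kinase subunit gene Ikbkg disagreed: 94196_at, which represents the gene, passed no test, while 103216_f_at fell by 0.91 ± 0.22 for KSR1 minus GFP (limma adjusted p = 0.0133) and was 0.95 ± 0.22 higher in the double line than with KSR1 (limma adjusted p = 0.00852). Its interaction was +1.35 ± 0.31 (limma adjusted p = 0.0155).

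Of 13 measured NF-kB target genes, 3 rose and 0 fell for KSR1 minus GFP (median 0.66 against 0.04 over all probe sets), and 0 rose and 5 fell for the double line minus KSR1 (median -0.68 against -0.07). For the double line minus H-RasV12, 3 rose and 3 fell, with a median of 1.19 against -0.05. The shares of all probe sets called higher and lower were 4.97% and 6.81%, 8.16% and 6.92%, and 7.1% and 7.71%. The medians depended on which genes and arrays entered. Over all 19 target genes, without the filter, they were 0.38 for KSR1 minus GFP and -0.02 for the double line minus H-RasV12, and over the 12 past the stricter filter the latter was 0.78. The median for the double line minus KSR1 was -0.32 without KSR1 replicate 1, -0.16 without double-line replicate 2, -1.06 without double-line replicate 1 and -0.33 past the stricter filter. The monocyte chemokine gene Ccl2 averaged 1666 ± 632 with GFP, 1803 ± 246 with H-RasV12, 9543 ± 2607 with KSR1 and 7328 ± 3389 in the double line. It rose by 2.55 ± 0.36 with KSR1 over GFP (limma adjusted p = 0.000241) and by 1.89 ± 0.36 in the double line over H-RasV12 (limma adjusted p = 0.00202), in all 20 alternatives. Nfkbiz, an inducible nuclear IkB, rose in the same comparisons (+1.37 ± 0.41 and +1.49 ± 0.41, limma adjusted p = 0.0418 and 0.023). Its first call ended in 9 of the alternatives, with limma adjusted p up to 0.19 without GFP replicate 3, and also without the filter (0.0822) or without GFP replicate 2, KSR1 replicate 1 or 2, double-line replicate 2 or any 1 H-RasV12 array. Its second ended in 4, without H-RasV12 replicate 1 or 2 or double-line replicate 1 or 3 (0.0753, 0.0684, 0.0528 and 0.0645). The cytokine gene Il6 read 4975, 393 and 434 with KSR1 and 4.14 to 228 on the other 9 arrays. It rose by 3.16 ± 0.82 with KSR1 (limma adjusted p = 0.0201, and 0.0821, 0.0789 and 0.0727 when GFP replicate 2, GFP replicate 3 and KSR1 replicate 1 were left out in turn), and fell by 3.19 ± 0.82 from KSR1 to the double line (limma adjusted p = 0.0162, and 0.059 and 0.0778 without KSR1 replicate 1 or double-line replicate 2). Without KSR1 replicate 1 these Il6 differences were 1.99 and -2.02. Il6 passed the filter on 4 arrays, all those of the KSR1 line and GFP replicate 1. A high KSR1 line was thus in part built into its passing.

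Other targets were lowest in the double line. The macrophage growth factor gene Csf1 averaged 3052 ± 523, 1973 ± 262, 3025 ± 888 and 931 ± 371 in the GFP, H-RasV12, KSR1 and double lines, and fell by 1.71 ± 0.27 from KSR1 (limma adjusted p = 0.000656). The chemokine gene Cx3cl1 fell by 1.27 ± 0.20 from KSR1 (limma adjusted p = 0.000554) and by 1.08 ± 0.20 from H-RasV12 (limma adjusted p = 0.00173), and the adhesion molecule gene Vcam1 by 1.36 ± 0.35 and 1.63 ± 0.35 (limma adjusted p = 0.0172 and 0.00513). The first Vcam1 call ended without KSR1 replicate 1, double-line replicate 2 or double-line replicate 3 (0.0647, 0.0856 and 0.069). These Vcam1 values are those of its brightest probe set. A dimmer one was called against KSR1 (-1.19 ± 0.36, limma adjusted p = 0.0386) but not against H-RasV12 (-0.84 ± 0.36, limma adjusted p = 0.146). Another was called against H-RasV12 (-0.92 ± 0.28, limma adjusted p = 0.0372) but not against KSR1 (-0.64 ± 0.28, limma adjusted p = 0.151). Bcl2l1, an anti-apoptotic gene named after its values were seen, completed the 5 that fell from KSR1 (-1.09 ± 0.30, limma adjusted p = 0.0252). Its call ended without KSR1 replicate 1 or 2 or double-line replicate 2 or 3 (0.0811, 0.0969, 0.109 and 0.106) and under median centring (0.0594). Sod2, mitochondrial superoxide dismutase, rose over H-RasV12 by 1.56 ± 0.26 (limma adjusted p = 0.00076).

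**Figure D4:**
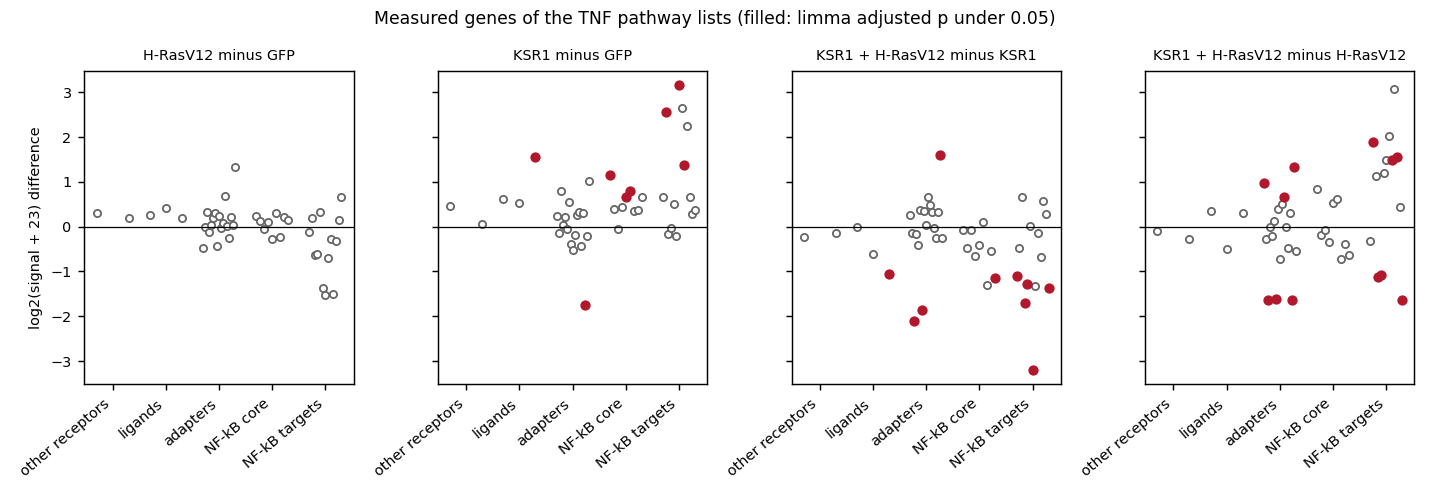
Differences on the log2(signal + 23) scale for the 44 measured genes of the 5 lists, 1 panel per comparison, with filled red points for limma adjusted p under 0.05. No point is filled for H-RasV12 minus GFP, 8 are for KSR1 minus GFP (7 higher), 10 for the double line minus KSR1 (9 lower) and 12 for the double line minus H-RasV12 (6 higher).

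Over the 5 lists together, 0 of 44 measured genes passed limma for H-RasV12 minus GFP, and 4 had an unadjusted p under 0.05. For KSR1 minus GFP, 7 rose and 1 fell, where 4.97% and 6.81% of all probe sets did. The 7 became 2 without GFP replicate 2 or GFP replicate 3, 3 without KSR1 replicate 1 and 4 without KSR1 replicate 3. Tnfsf9 and Ccl2 were called in every one of these fits. For the double line minus KSR1, 1 rose and 9 fell, against 8.16% and 6.92% of all probe sets, and 5 fell without KSR1 replicate 1, or 6 without KSR1 replicate 2, double-line replicate 2 or double-line replicate 3. Median centring, which shifts the median of all probe sets by 0.165 on the log2 scale in this comparison, gave 3 higher and 6 lower. For the double line minus H-RasV12, 6 rose and 6 fell, against 7.1% and 7.71% of all probe sets, and 3 rose without H-RasV12 replicate 2, or 4 without H-RasV12 replicate 3. In the interaction 1 gene, Traf6, was higher and 4 (Birc3, Map3k5, Vcam1 and Cx3cl1) were lower, against 4.16% and 3.54% of all probe sets, and 7 were lower without double-line replicate 1. With the array number as a block, 0 of these calls were lost. For KSR1 minus GFP the block added Lcn2, a siderophore-binding protein gene (limma adjusted p = 0.0127), and Cx3cl1 (0.0402), and for the double line minus KSR1 it added the inhibitor gene Nfkbie (0.0487), all 3 named after their values were seen.

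The profile of Tnfrsf9 was then set against every other named probe set past the filter. Likeness was the mean absolute difference between log2 profiles over the 12 arrays, each centred on its own mean, and the median over all probe sets was 2.22. The nearest was Syngr1, a synaptic vesicle protein gene, at 0.396, with means of 72.8 ± 81.0, 44.7 ± 17.8, 756 ± 76.4 and 1251 ± 261 in the GFP, H-RasV12, KSR1 and double lines. Ndrg2, a stress-responsive gene, followed at 0.604, the AMP deaminase gene Ampd3 at 0.643, the reticulophagy receptor gene Retreg1 at 0.832 and the muscle ankyrin repeat gene Ankrd1 at 0.840. That these 5 are high in the lines with KSR1 follows from the choice of the nearest profiles. Tnfsf9, the receptor's own ligand, was not among them.

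**Figure D5:**
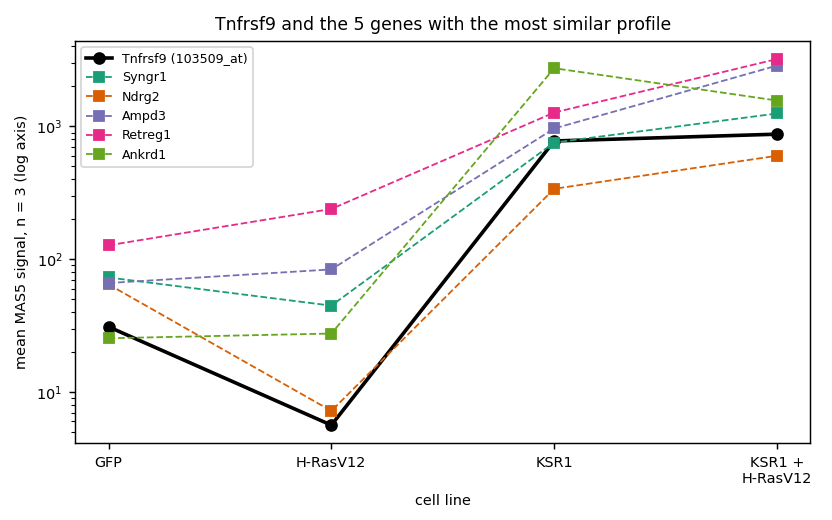
Mean MAS5 signal of 3 arrays (log axis) in the 4 lines for Tnfrsf9 103509_at (black) and the 5 genes with the most similar profile. Each line climbs between H-RasV12 and KSR1, and Ankrd1 is the 1 gene whose mean is lower in the double line (1567) than in the KSR1 line (2745).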

How the data were processed

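The authors deposited MAS5 signals, per the submitters' processing notes, as an intensity for each probe set on a linear scale. The 2% trimmed mean had a median of 500.3 over the 12 arrays, and no further scaling was applied in the main fit. Gene names are those of the platform annotation, brought up to date with the GRCm38.p6 gene table. After 66 control probe sets were set aside, a probe set was tested if 3 or more of 12 arrays exceeded 181.4, the median signal of the table, which kept 6897. Values were transformed as log2(signal + 23). A single limma fit (limma 3.58.1, R 4.3.3) on 4 group means, with 8 residual degrees of freedom and an intensity trend, gave 5 two-sided comparisons. Adjusted p-values are Benjamini-Hochberg over 6897 probe sets, with calls under 0.05. A gene was represented by its brightest 1-symbol probe set. The text names every receptor probe set, Ksr1, up to 4 called genes per list and comparison with the largest change, and the 5 profiles nearest to Tnfrsf9. The receptors, lists, tests and alternatives were chosen with earlier results of these data known. The labels do not say that replicate numbers pair arrays. Deviations of same-numbered arrays correlated with a median of 0.198 (different numbers -0.126). All 3 pairs exceeded 0.1 for GFP with KSR1, H-RasV12 with KSR1 and KSR1 with the double line. For GFP with the double line 2 of 3 did, and 1 of 3 did for each of GFP with H-RasV12 and H-RasV12 with the double line. The number as a block was therefore run over all comparisons as an alternative. The fit was tested on simulated data. In all, 20 alternatives were run, and the number of arrays limits the precision.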

Additional observations from a re-analysis of the deposited data

Results flagged for a closer look

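The H-RasV12 response with KSR1 differed from that without KSR1 for 5 genes of the lists, by limma's interaction term over 6897 probe sets. The interaction was -2.43 on the log2 scale for Birc3 (SE 0.57, limma adjusted p = 0.0166, and 0.0522 without H-RasV12 replicate 3). It was -2.16 for Map3k5 (SE 0.45, limma adjusted p = 0.00931) and 1.55 for Traf6 (SE 0.33, limma adjusted p = 0.0115), and both kept their calls in all 20 alternatives. It was -1.59 for Cx3cl1 (SE 0.28, limma adjusted p = 0.00322), also called in all 20. For Vcam1 it was -2.01 (SE 0.50, limma adjusted p = 0.0234). Leaving out any 1 of 7 arrays (GFP replicates 2 and 3, H-RasV12 replicate 1, KSR1 replicates 1 and 2, double-line replicates 2 and 3) ended this call, with adjusted p between 0.0524 and 0.0637. Of the dimmer Vcam1 probe sets, the one not called against KSR1 gave -1.44 (SE 0.39, limma adjusted p = 0.0366). The one not called against H-RasV12 gave -1.37 (SE 0.51, limma adjusted p = 0.133).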

How the results depend on the processing

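Over the 5 lists, the replicate block gave 9 genes higher and 1 lower for KSR1 minus GFP, 1 and 10 for the double line minus KSR1, 9 and 7 for the double line minus H-RasV12, and 1 and 6 for the interaction. It ended 0 of the calls made without it. It added Lcn2, Il6, Saa3 and Tab2 for the double line minus H-RasV12 (limma adjusted p = 0.0424, 0.0456, 0.0111 and 0.0281) and Csf1 and Tnfsf9 to the interaction (0.0343 and 0.0348). With replicates 2 and 3 alone, 1 gene was lower for H-RasV12 minus GFP and 2 were higher in the interaction. Median centring gave 3 higher genes for the double line minus KSR1. Leaving out 1 array at a time gave 2 to 8 higher genes for KSR1 minus GFP, 1 to 2 higher and 5 to 10 lower for the double line minus KSR1, 3 to 8 higher for the double line minus H-RasV12, and 1 to 2 higher and 3 to 7 lower in the interaction. Of 860 alternative values of receptor differences, 844 moved by less than the spread between arrays, and 0 reversed a called difference. Many of them could not move, because a filter change or the block leaves a difference unchanged. The same is true when an array of a line outside the comparison is left out, so these counts are no measure of stability. Of 598 alternative values of named list genes, 59 lost their call and 0 reversed, and many of those could not reverse for the same reasons. Dim probe sets (Fas, Tnfrsf11b and Tnfrsf9 without KSR1) depend most on the pseudocount.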

Other observations

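Errfi1, which encodes a feedback inhibitor of the epidermal growth factor receptor, is the second protein-coding gene before Tnfrsf9 in the GRCm38.p6 gene table. The neighbours were looked up after the values of Tnfrsf9 were seen, as the nearest 3 genes with a probe set on each side. Its probe set 93974_at averaged 553 ± 243 with GFP, 946 ± 297 with H-RasV12, 5660 ± 755 with KSR1 and 1153 ± 863 in the double line (n = 3), and its second probe set 93975_at averaged 1138 ± 250, 1718 ± 437, 7289 ± 267 and 2025 ± 837. Errfi1 rose with KSR1 by 3.40 ± 0.42 and 2.68 ± 0.28 in the 2 probe sets (limma adjusted p = 8.76e-05 and 2.48e-05). The double line minus KSR1 was -2.50 ± 0.42 and -1.92 ± 0.28 on the log2 scale (limma adjusted p = 0.000928 and 0.00031), whereas Tnfrsf9 103509_at stood at 777 ± 362 and 874 ± 205 in these lines. For KSR1 minus GFP, Park7, Rere, Per3 and Vamp3 passed no test (limma adjusted p = 0.865, 0.366, 0.747 and 0.496), and Dnajc11 lay below the filter. Park7, the nearest neighbour, was higher in the double line than with KSR1 (+0.60 ± 0.18, limma adjusted p = 0.0356) and than with H-RasV12 (+0.57 ± 0.18, limma adjusted p = 0.0469).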
